A study of Phyllostachys edulis with 12 samples.

Results

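In bamboo seedlings held at -2 °C (moso bamboo, Phyllostachys edulis), 9 of 47091 genes were higher than in untreated seedlings after 0.5 h, near the untreated level after 1 h, and higher again after 24 h. The 9 genes were chosen on these same values, as CPM, the count of a gene per 1000000 counts of its library. The highest control value had to be at least 1 CPM, and every 0.5 h and 24 h library had to lie above every control and 1 h library. The 0.5 h and 24 h means each had to be at least 1.5 times the control mean, and the 1 h mean had to be less than 25% above the control mean. Of the 47091 genes in the table, 33099 reached the control minimum, and all 9 chosen genes passed the filter on low counts and entered the tests. The rise, the dip and the second rise are therefore the choice itself and are given as a description, which no test of the same contrasts can support.

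Whole seedlings were 3 weeks old. The control had no cold treatment, and cold-treated seedlings went into a freezing chamber for 0.5 h, 1 h or 24 h with the control's light and day length. The labels name no cultivar, mutation or transgene, and do not say whether a replicate is a single seedling or a pool. Counts came from 11 libraries, of which 2 were from 24 h and 3 from each other group, with 29304206 to 34543663 counts each. The labels give no harvest time, so a batch shared by the libraries of 1 group and the effect of the cold cannot be told apart. Nor can fewer cells of a type and less RNA per cell, in RNA from whole seedlings.

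Plants chilled below their usual range change transcription in waves. Early waves in Arabidopsis include calcium-responsive genes and the CBF transcription factors, and later waves include the COR genes, whose products protect membranes and proteins. Many of these genes also respond to light, handling and time of day. The files pair no identifier with a name or description, so none of the 9 genes can be placed in such a pathway here. For 4 genes the identifier is printed, and the other 5 are told apart by the gene length listed in the table, taken as bases. Of the 9, 8 have an identifier of the PH01 type and 1 is a newGene entry, against 27.1% newGene entries among the 33099 genes that reached the control minimum. No pair of the 8 shares the part of the identifier before the letter G. The listed lengths ran from 724 to 16910 bases with a median of 5056, and the median over the 33099 genes was 4651.

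PH01002924G0170, of 14693 listed bases, gave the deepest counts, with 1613 to 6554 per library. Its level was 61.6, 48.0 and 79.4 CPM in control replicates 1 to 3, 123, 124 and 98.3 CPM at 0.5 h, 74.1, 83.5 and 76.4 CPM at 1 h, and 178 and 202 CPM at 24 h. The 1 h libraries lay inside or just above the control range, while the lowest 0.5 h library was 17.7% above the highest 1 h library. Group means were 63.0 ± 15.7 CPM in the control (SD, n = 3), 115 ± 14.7 CPM at 0.5 h (SD, n = 3), 78.0 ± 4.95 CPM at 1 h (SD, n = 3) and 190 ± 16.7 CPM at 24 h (SD, n = 2). The 0.5 h mean was 1.83 times and the 24 h mean 3.01 times the control mean. At 1 h, the mean still held 28.7% of the 0.5 h rise in CPM, and its ratio to the control of 1.24 was the closest of the 9 to the limit.

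PH01000013G1830, with the shortest listed length of 724 bases, had the highest control level per length, 34.3 CPM per 1000 listed bases against 4.29 for PH01002924G0170 and 0.13 to 1.63 for the others. Whether the listed length includes introns is not given, so these values are not shown to be levels per transcript length. PH01000013G1830 stood at 27.4, 21.4 and 25.6 CPM in the control libraries and at 42.2, 42.3 and 35.6 CPM at 0.5 h. Its level was 27.8, 28.4 and 32.0 CPM at 1 h, and 94.0 and 124 CPM at 24 h. Unlike the other 8 genes, this gene had all 3 of its 1 h libraries above all 3 controls. The lowest of them, at 27.8 CPM (960 counts), was close to control replicate 1, at 27.4 CPM (884 counts). An incomplete return of this gene in every library is therefore not shown. Its means were 1.61 times the control at 0.5 h, 1.18 times at 1 h and 4.40 times at 24 h. Hence, in CPM over the control mean, the 0.5 h rise reached 18.1% of the 24 h rise.

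PH01000421G0460, of 7873 listed bases, had the largest ratio of 0.5 h to control of the 9 and the most uneven 0.5 h libraries. Its level was 4.84, 2.65 and 3.13 CPM in the control libraries, 14.3, 5.40 and 24.2 CPM at 0.5 h, 3.97, 1.62 and 1.91 CPM at 1 h, and 13.4 and 27.2 CPM at 24 h. The 0.5 h SD was 64.2% of its mean, and 0.5 h replicate 2, with 183 counts, lay only 11.7% above control replicate 1, with 156. The means were 4.13 times the control at 0.5 h, 0.71 times at 1 h and 5.73 times at 24 h. Its 1 h mean was 5.85-fold below its 0.5 h mean, the largest such ratio of the 9, and 8.11-fold below its 24 h mean.

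PH01000054G1500, of 851 listed bases, had the largest ratio of 24 h to control. This identifier is printed after its values were seen, because it stood out and its mean over all libraries, 4.99 CPM, fell just short of the 5 CPM asked of named genes. It was counted at 1.64, 0.98 and 1.19 CPM in the control libraries, 2.59, 3.13 and 2.22 CPM at 0.5 h, 1.79, 1.23 and 1.66 CPM at 1 h, and 15.7 and 22.8 CPM at 24 h. Its first rise rested on few counts, 72 to 106 per 0.5 h library against 33 to 53 in the controls, and its second on 470 and 740. The 0.5 h mean was 2.08 times and the 24 h mean 15.1 times the control mean. In CPM over the control mean, the 0.5 h rise was thus 7.68% of the 24 h rise.

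**Figure D1:**
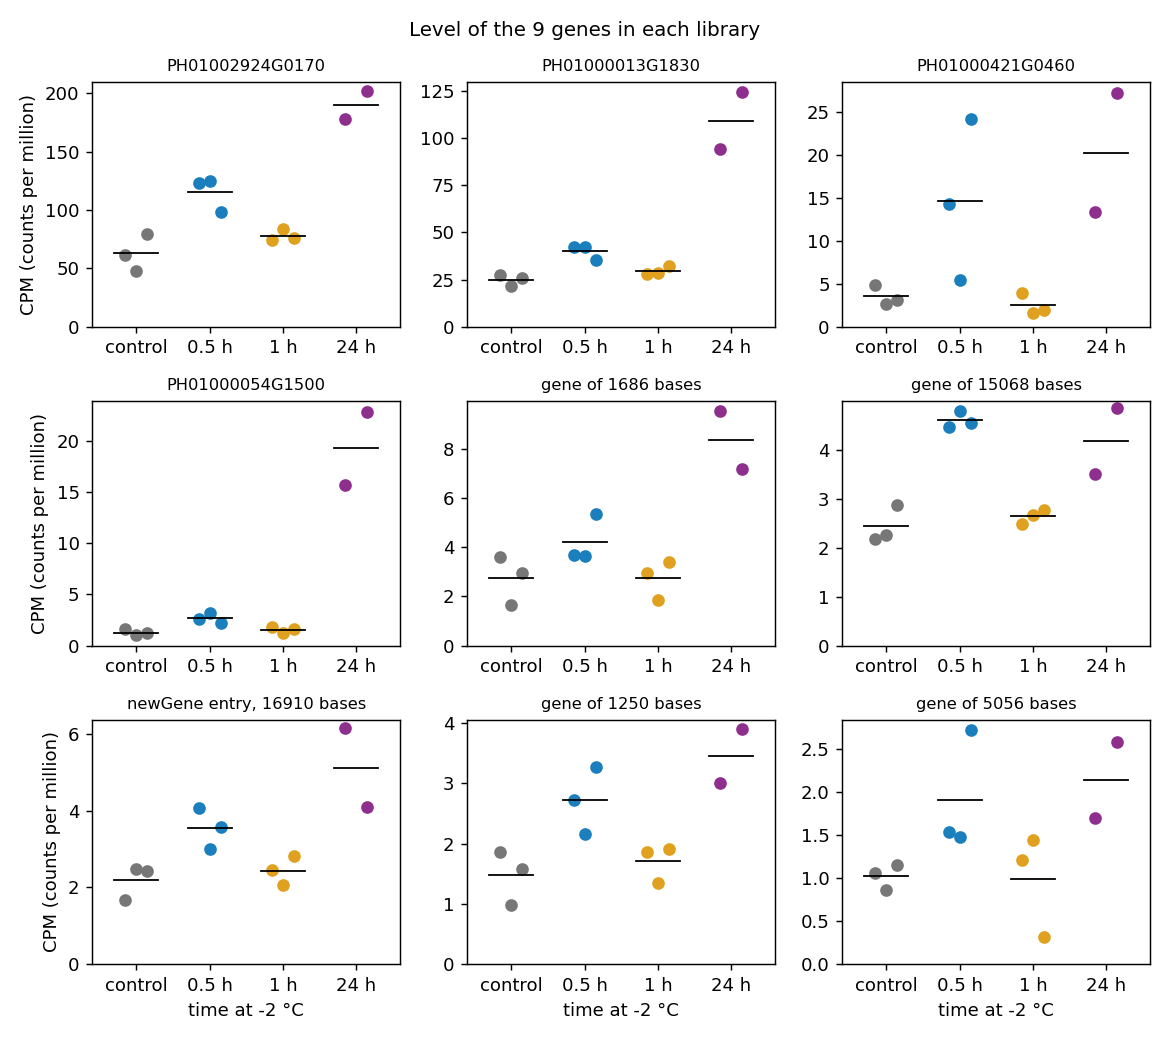
Level of each of the 9 genes in CPM (y axis, from 0, own scale per panel) by time at -2 °C, with 1 point per library and a bar at the group mean; panels without an identifier give the listed gene length. In every panel the 0.5 h and 24 h points lie above all control and 1 h points, as the choice requires, and the margin is narrow in several panels.

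The remaining 5 genes were thinly counted, with 10 to 286 counts per library and control means of 1.02 to 2.74 CPM. The gene of 1686 listed bases had 3.60, 1.67 and 2.97 CPM in the control libraries, 3.69, 3.63 and 5.34 CPM at 0.5 h, 2.95, 1.87 and 3.38 CPM at 1 h, and 9.55 and 7.20 CPM at 24 h. Its 1 h mean equalled the control mean to within 1% (ratio 0.997), and its lowest 0.5 h library was only 0.961% above its highest control. The gene of 15068 listed bases was the only one with a higher mean at 0.5 h than at 24 h. It stood at 2.17, 2.26 and 2.87 CPM in the control libraries, 4.47, 4.78 and 4.54 CPM at 0.5 h, 2.49, 2.66 and 2.78 CPM at 1 h, and 3.51 and 4.86 CPM at 24 h. Its 0.5 h libraries were the tightest of the 9 genes, with an SD of 3.56% of the mean, and its 24 h libraries lay on either side of them.

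The newGene entry, of 16910 listed bases, had 1.67, 2.47 and 2.44 CPM in the control libraries, 4.06, 3.01 and 3.58 CPM at 0.5 h, 2.46, 2.05 and 2.81 CPM at 1 h, and 6.14 and 4.09 CPM at 24 h. Each group of high libraries cleared the low ones, by 7.25% at the narrowest point. The gene of 1250 listed bases had 1.86, 0.98 and 1.58 CPM in the control libraries, 2.73, 2.16 and 3.27 CPM at 0.5 h, 1.85, 1.35 and 1.91 CPM at 1 h, and 3.00 and 3.91 CPM at 24 h. For these genes the control, 0.5 h and 1 h ranges lay close together. The gene of 5056 listed bases had 1.05, 0.86 and 1.15 CPM in the control libraries, 1.54, 1.48 and 2.72 CPM at 0.5 h, 1.22, 1.44 and 0.32 CPM at 1 h, and 1.70 and 2.58 CPM at 24 h. Its 1 h mean, 0.97 times the control mean, hid a split, since replicate 3 held 10 counts and the other 1 h libraries, with 42 and 47, lay above all 3 controls.

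On CPM, which corrects for library totals alone, the separation that defines the 9 genes was narrow beside counting error. Margins under other scaling are not given here. For each gene, the lowest library among 0.5 h and 24 h was set against the highest among control and 1 h, with exact 95% Poisson intervals of the counts, which cover counting error only. The intervals were apart for 1 gene, PH01002924G0170, at 94.9 to 101.8 CPM in 0.5 h replicate 3 against 80.4 to 86.7 CPM in 1 h replicate 2. For the other 8 they overlapped. For PH01000013G1830 they ran from 33.6 to 37.7 CPM and from 30.0 to 34.0 CPM. The margin was under 20% in 7 of the 9 genes. The low edge of the high libraries was 0.5 h replicate 2 in 5 genes, 0.5 h replicate 3 in 3 and a 24 h library in 1. The upper edge of the low libraries was a 1 h library in 6 genes and a control in 3.

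The libraries of a group differed over the 9 genes together. In control replicate 2, 7 of the 9 genes had their lowest control value, and the median ratio to the control mean was 0.77, against 1.10 and 1.08 in control replicates 1 and 3. At 24 h, replicate 2 was the higher library in 7 of the 9 genes. The median ratio to the control mean was 1.85, 1.53 and 1.87 in the 0.5 h libraries, 1.12, 0.96 and 1.23 in the 1 h libraries, and 2.83 and 2.65 in the 24 h libraries. Shares over all genes are not given here, so whether these differences are particular to the 9 genes is not known. The part of such library differences in the pattern was not tested. Over the genes, the median of the ratios of group means was 1.84 at 0.5 h, 1.11 at 1 h and 3.01 at 24 h, and among the 33099 genes with the same control minimum it was 0.973, 1.03 and 0.881. At 1 h, 6 of the 9 genes had a mean above the control mean, and for 8 of the 9 the 1 h range overlapped the control range. The limit on the 1 h mean favours such overlap, and no share over all genes stands beside these counts. Nothing is therefore read from them.

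**Figure D2:**
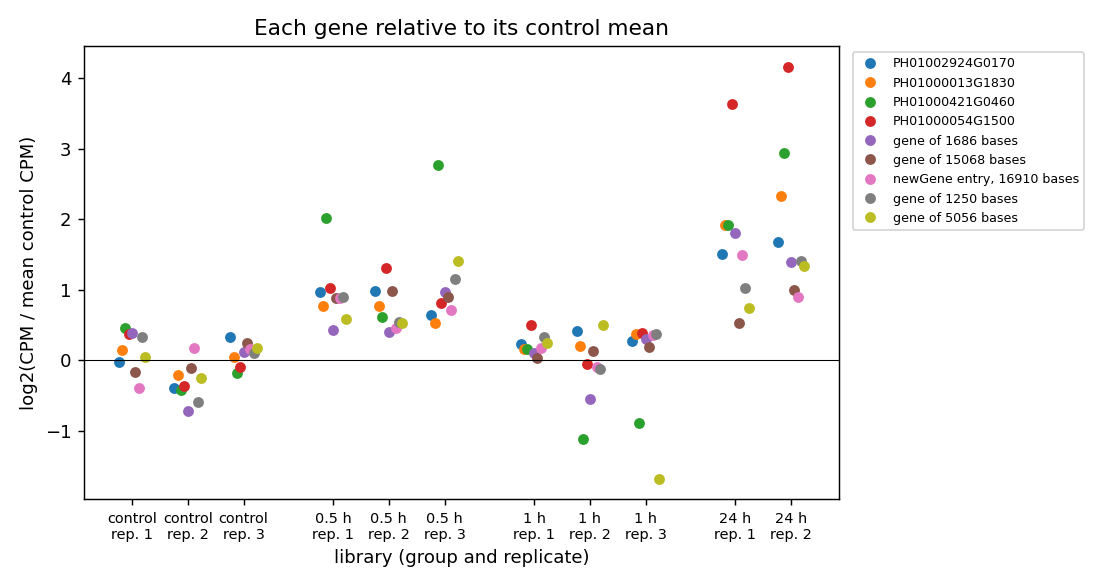
Level of each of the 9 genes in each library as log2 of its CPM over its own control mean (y axis), with libraries grouped by time on the x axis and 1 colour per gene. Most 1 h points lie near 0, with the lowest being those of PH01000421G0460 in replicates 2 and 3 and of the gene of 5056 bases in replicate 3, and PH01000054G1500 stands highest at 24 h.

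The choice depended on its limits and on single libraries. Just inside the limits lay a 0.5 h ratio of 1.54, a 24 h ratio of 1.72, a 1 h ratio of 1.24 and a highest control value of 1.15 CPM. Among genes failing 1 condition alone, the nearest had a 0.5 h ratio of 1.48 (21 such genes), a 24 h ratio of 1.31 (1 gene), a 1 h ratio of 1.27 (9 genes) and a highest control value of 0.56 CPM (12 genes). The condition that kept out most genes by itself was the separation of the 0.5 h libraries, which 37 genes failed alone, while 2 failed only the separation of the 24 h libraries. With CPM scaled by TMM factors (edgeR's correction for library composition), 22 genes met the same limits, among them all 9. Without control replicate 2 there were 17 genes, without 0.5 h replicates 1, 2 and 3 there were 15, 22 and 29, and without 1 h replicates 1 and 2 there were 22 and 15. Between 5 and 9 of the original genes were shared with each list made without 1 library, the fewest without control replicate 1, where 5 of 11 were shared.

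Among genes that were high at 0.5 h and 24 h, few had a 1 h mean near the control mean. Without any condition on 1 h, 213 genes had all 0.5 h and 24 h libraries above all controls and both means at least 1.5 times the control. Their 1 h mean had a median of 1.73 times the control mean (quartiles 1.46 and 2.08). It was at least 1.5 times the control in 146 of them, less than 25% above it in 16 and under the control mean in 5. Of those 16, 9 are the genes described here, and the other 7 had at least 1 of their 1 h libraries as high as a 0.5 h or 24 h library. The other 197 genes, 51 of them under 1.5 times the control at 1 h, had medians of 1.95 times the control at 0.5 h and 3.22 times at 24 h, beside 1.84 and 3.01 for the 9. The mirror pattern, with all 0.5 h and 24 h libraries below all control and 1 h libraries and the folds inverted, was met by 64 genes. These counts come from limits on the same libraries and were not tested against each other. The control values that chose the 213 genes also enter their 1 h ratios, so those ratios are not independent of the choice. Among the 33099 genes that reached the control minimum, the median 1 h ratio was 1.03.

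**Figure D3:**
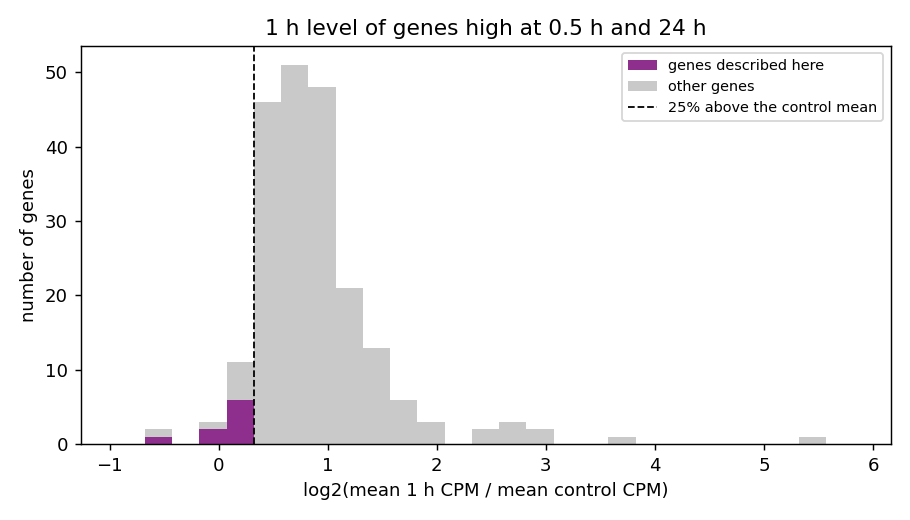
Number of genes (y axis) by log2 of the mean 1 h CPM over the mean control CPM (x axis) among the 213 genes high at 0.5 h and 24 h, with the 9 genes described here in purple and the rest in grey, stacked. The dashed line marks 25% above the control mean, and 16 of the 213 genes lie to its left, including the 9.

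The contrasts that chose the genes were also fitted, and the counts of calls are given only as a description from which nothing is read. A call is an adjusted p under 0.05 over all 39640 genes tested. For 0.5 h against control, edgeR's quasi-likelihood test called 0 of the 9 higher (background 0.00757% of genes), with 7 at an unadjusted p under 0.05 (2.76% of genes), and DESeq2 called 5 (background 0.462%). From 0.5 h to 1 h, edgeR called 0 of the 9 lower (background 0%), with 8 at an unadjusted p under 0.05 (3.71% of genes), and DESeq2 called 1 (background 0.169%), PH01000421G0460. For 24 h against control, edgeR called 8 higher (background 3.25%), and for 24 h against 1 h also 8 (background 4.65%). The gene of 5056 listed bases was the one not called in either. On edgeR's scale, the log2 fold changes of the first rise ran from 0.66 (SE 0.32) for the gene of 1686 listed bases to 2.08 (SE 0.52) for PH01000421G0460. Those of the dip ran from -0.53 (SE 0.13) for PH01000013G1830 to -2.63 (SE 0.54) for PH01000421G0460.

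The limits set no order between 0.5 h and 24 h, so 24 h was tested against 0.5 h. Both groups' values took part in the choice, with a lower limit on each and no upper limit. The test is therefore not independent of the choice, and its p-values describe these genes only. From 0.5 h to 24 h, 3 genes rose further. On the log2 scale, PH01000054G1500 rose by 2.98 (SE 0.26, edgeR adjusted p = 0.000155), PH01000013G1830 by 1.58 (SE 0.15, edgeR adjusted p = 0.000194) and PH01002924G0170 by 0.85 (SE 0.19, edgeR adjusted p = 0.029). In each of these, both 24 h libraries lay above all 3 libraries at 0.5 h. These 3 of 9 genes stand beside 1.88% of the tested genes called higher, and 0 of 9 were called lower beside 3.18%, and 0 by DESeq2 beside 5.46%. At an unadjusted p under 0.05, 5 of the 9 were higher, beside 8.82% of tested genes, and 0 were lower, beside 11.4%. The limits kept out genes low at 0.5 h or at 24 h, and the tested genes as a whole passed no such limits. Nothing is therefore read from these shares, and 0 lower calls among 9 genes show little.

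The other 6 genes were not called by edgeR between 0.5 h and 24 h. For PH01000421G0460 the log2 value was 0.60 (SE 0.54, edgeR adjusted p = 0.593), and its 24 h libraries of 13.4 and 27.2 CPM overlapped its 0.5 h libraries of 5.40 to 24.2 CPM. That value moved widely with single libraries: it was 0.20 without 0.5 h replicate 2, 1.19 without 0.5 h replicate 3, and 1.00 and 0.03 without 24 h replicates 1 and 2, with adjusted p-values of 0.284 to 0.998 over the 19 alternatives. The gene of 1686 listed bases had 1.12 (SE 0.35, edgeR adjusted p = 0.0974) and was called by DESeq2 (adjusted p = 0.0381), which called 4 of the 9 higher (background 3.75%). The newGene entry had 0.66 (SE 0.28, edgeR adjusted p = 0.215). For both, each 24 h library was above each 0.5 h library, which held in 5 of the 9 genes and in 11.7% of all tested genes. The genes of 1250, 5056 and 15068 listed bases had log2 fold changes of 0.47 (SE 0.32), 0.29 (SE 0.53) and -0.01 (SE 0.23), with edgeR adjusted p-values of 0.458, 0.817 and 0.99. These standard errors leave room for further change in either direction, so equal levels at 0.5 h and 24 h are not shown.

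Over the 9 genes the median log2 fold change from 0.5 h to 24 h was 0.66, and 8 of the 9 values were above 0. The median over all 39640 tested genes, which were not chosen on these values, was -0.01, and 19488 of them were above 0. The 197 genes high at 0.5 h and 24 h and at least 25% above the control at 1 h had a median of 0.55. Of these 197, 173 had a value above 0, and 66 were called higher and 0 lower. No difference between the 9 and the 197 was tested. The call of PH01002924G0170 was lost when any 1 of the 0.5 h or 24 h libraries was left out (edgeR adjusted p = 0.0579 to 0.0872 for the 0.5 h libraries). Its lowest edgeR adjusted p over the alternatives was 0.00817, without control replicate 3, and its DESeq2 adjusted p was 0.00049. The log2 fold change of PH01002924G0170 stayed between 0.72 and 0.92 over all 19 alternatives. The calls of PH01000054G1500 and PH01000013G1830 were kept in all 19, with adjusted p-values up to 0.00285 and 0.00442.

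**Figure D4:**
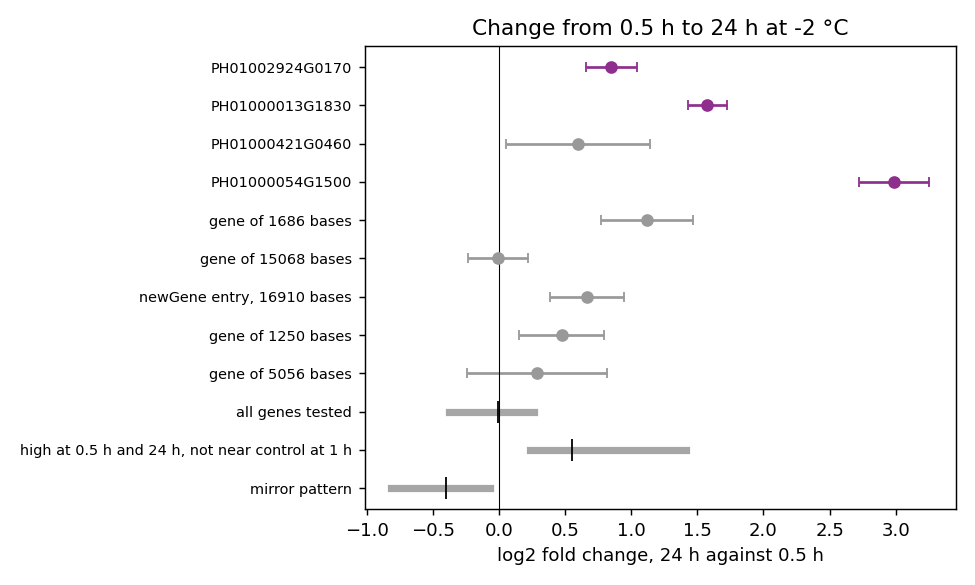
Log2 fold change from 0.5 h to 24 h (x axis) for the 9 genes (points with bars of 1 standard error, purple where edgeR called the gene), and the median (tick) and quartiles (bar) over all tested genes, the 197 genes high at 0.5 h and 24 h and at least 25% above the control at 1 h, and the 64 genes with the mirror pattern. PH01000054G1500 stands highest at 2.98, and the gene of 15068 bases is at about 0.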

How the data were processed

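The authors deposited 1 table of whole-number counts per gene, read as raw counts because each column has its own total. Per the submitters' processing notes HISAT2 was used. Not given in the sources used here are its version, the genome build, the annotation, the counting tool and the use of strand. Counts of near-identical or overlapping genes are therefore uncertain. Per the labels, libraries were made with a NEBNext Ultra kit. Per the file headers the table also holds a gene length, and whether it includes introns is not given there. The code in a sample's description linked it to its column. This gave 11 of 12 labelled samples, 24 h replicate 3 was not analysed here, and 1 count column that matched no label was not used. If the table's numbering is not that of the labels, that column may be a 24 h library and the 24 h replicate numbers may be shifted.

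CPM is a count over its column's total, per 1000000. Tests used edgeR 4.0.16 in R 4.3.3 (quasi-likelihood, TMM, filterByExpr, all 11 libraries in 1 fit with a mean per group, Benjamini-Hochberg adjustment over 39640 genes, threshold 0.05), with DESeq2 1.42.0 as an alternative. Fold changes from edgeR are on TMM-scaled counts, so they differ from ratios of CPM. Standard errors are the log2 fold change over the square root of F. The scripts were tested on simulated data. The design assumed 3 libraries at 24 h and was run with 2. The labels do not say that replicates are separate plants, so p-values cover the spread among these libraries alone, and it may be technical. All pairs of libraries differed by more than sampling noise (lowest chi-square per degree of freedom 17.2). The genes and limits were chosen with earlier results of these data known. Identifiers are printed for genes with a mean of at least 5 CPM over the libraries, at most 2 with the highest and 2 with the lowest change from 0.5 h to 24 h, which gave 3, and for 1 gene added after its values were seen. Planned lists of cold, calcium, hormone, clock and other genes could not be applied without names.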

Additional observations from a re-analysis of the deposited data

Results flagged for a closer look

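For 3 of the 9 genes, 24 h and 0.5 h differed in their change against the control, by edgeR's test of that difference, in which the control cancels. Values of both groups took part in the choice of the genes, so the test is not independent of it. Among all 39640 tested genes, 1.88% were called higher and 3.18% lower. Of the 197 genes high at 0.5 h and 24 h but not near the control at 1 h, 66 were called higher and 0 lower. The difference in log2 fold change was 2.98 for PH01000054G1500, 1.58 for PH01000013G1830 and 0.85 for PH01002924G0170, each higher at 24 h. The call of PH01002924G0170 was lost in 6 of 19 alternatives, namely without any 1 of the 5 libraries at 0.5 h and 24 h and with the replicate number as a block. Outlying libraries could not be looked for, since groups held at most 3.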

How the results depend on the processing

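The number of genes meeting the limits was 9 as given. It was 22 with TMM and 22 with RLE scaling, 2 with a control minimum of 5 CPM, 2 with a rise of at least 2-fold, 3 with a 1 h mean under the control mean, and 10 to 29 with 1 library left out. In the edgeR fit, TMM factors were 0.98 to 1.04 in the control, 0.98 to 1.02 at 0.5 h, 1.05 to 1.06 at 1 h and 0.89 to 0.92 at 24 h. A scaled CPM is the CPM over such a factor. The cause of the changes in number was not tested. From 0.5 h to 24 h, edgeR called 746 genes higher and 1261 lower, 37.2% of them higher. With library size alone it called 549 and 1991 (21.6% higher), and the median of all genes moved from -0.01 to -0.14; the median of the 9 genes lay 0.67 above that of all genes in either case. DESeq2 called 1486 higher and 2165 lower, a fit of only the groups compared 748 lower, and leaving out 1 library gave 295 to 829 higher and 472 to 1472 lower. Of the 9 genes, 2 or 3 were called higher by edgeR under every alternative, 4 by DESeq2 and 0 lower under any. With the replicate number as a block, 497 genes were higher and 747 lower, and 3 of the 9 were higher, of which 2 were shared with the fit without the block. PH01002924G0170 was lost (edgeR adjusted p = 0.0659) and the gene of 1686 listed bases was gained (edgeR adjusted p = 0.0375). The replicate numbers were not taken to pair the samples: between groups with 3 shared numbers, same-numbered libraries' deviations from their group means correlated across genes at -0.21 to 0.17.

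At 10 to 286 counts per library, the 5 thinly counted genes carry counting errors as wide as the margins that chose them.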
